A study of Danio rerio with 12 samples.

Results

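The interaction of benzo[a]pyrene (BaP) with diclofenac was measured in whole zebrafish as the departure of their mixture from the sum of the changes that each compound gave alone. For each entry the departure is the log2 change with the mixture minus that with BaP and minus that with diclofenac, each against Control, so a positive value means a mixture level above the sum. An entry is 1 transcript class of 1 gene identifier, and several entries can share a gene symbol. Departures were taken for the 21622 of 35497 entries that averaged at least 1 CPM (read counts scaled to a common library total), 95.4% of them protein-coding. The nearest entry inside that limit averaged 1.0003 CPM with a departure of -0.51 (BX544890.1), and the nearest outside it averaged 0.9997 CPM with a departure of 0.22 (map3k8).

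The 4 groups were zebrafish exposed for 48 h to the mixture of BaP and diclofenac, to BaP alone, to diclofenac alone, or to neither (Control), with 3 libraries each that the submitters describe as independent. The sources used here give no stage, age, dose or vehicle, so it is unknown whether a compound had the same dose alone and in the mixture. The authors' deposited table gives fold changes over the 12 libraries and no values per library, so errors are standard errors (SE) implied by its likelihood ratios. Group levels in CPM were rebuilt from its average and fold changes, and are approximate. The labelled whole body was checked with tissue markers, of which 29 of 32 averaged at least 1 CPM, with at least 1 for each of 13 tissues. The exocrine pancreas marker ela2l and the myelin marker mbpa averaged 0.603 and 0.963 CPM, and the heart marker vmhc was not matched.

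BaP is a polycyclic aromatic hydrocarbon that binds the aryl hydrocarbon (Ah) receptor, a ligand-activated transcription factor whose target genes include the cytochrome P450 family 1 enzymes that oxidise BaP. Diclofenac is a non-steroidal anti-inflammatory drug that blocks the cyclooxygenases, which make prostaglandins. A sum of log2 changes is the level expected if each compound multiplied a gene's level by the same factor whether or not the other was present. If doses were the same alone and in the mixture, the same departure can be read as the effect of BaP in the presence of diclofenac minus the effect of BaP alone.

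Against Control, by the p-values of the authors' deposited table after Benjamini-Hochberg adjustment at 0.05, 3199 entries changed with the mixture (14.8% of those tested), 1756 higher (8.12%) and 1443 lower (6.67%). With BaP 32 changed (0.148%), 25 higher (0.116%) and 7 lower (0.0324%). With diclofenac 3495 changed (16.2%), 1843 higher (8.52%) and 1652 lower (7.64%).

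In most entries the estimated departure was small. BaP alone was called in 0.148% of entries, so in the rest closeness to the sum does not show that effects of both compounds added up. The median departure was 0.02 with quartiles of -0.22 and 0.24, and the 5th and 95th percentiles were -0.74 and 0.70. The 95% interval of the departure lay wholly within 2-fold for 11425 entries, 52.8% of those tested. Departures of at least 2-fold were seen in 1074 entries (4.97%), 462 above and 612 below the sum, but 74.1% of these averaged under 5 CPM, where the SE is large. The share with a departure of at least 2-fold was 18.04% among entries averaging 1 to 2 CPM, the lowest abundance class. The median SE was 0.36, and at that SE a departure needed a size of about 1.53 to pass the test, so a smaller departure was not detectable in an entry with an SE of that size or more. At the first quartile of the SE, 0.27, the size needed was 1.17.

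**Figure D1:**
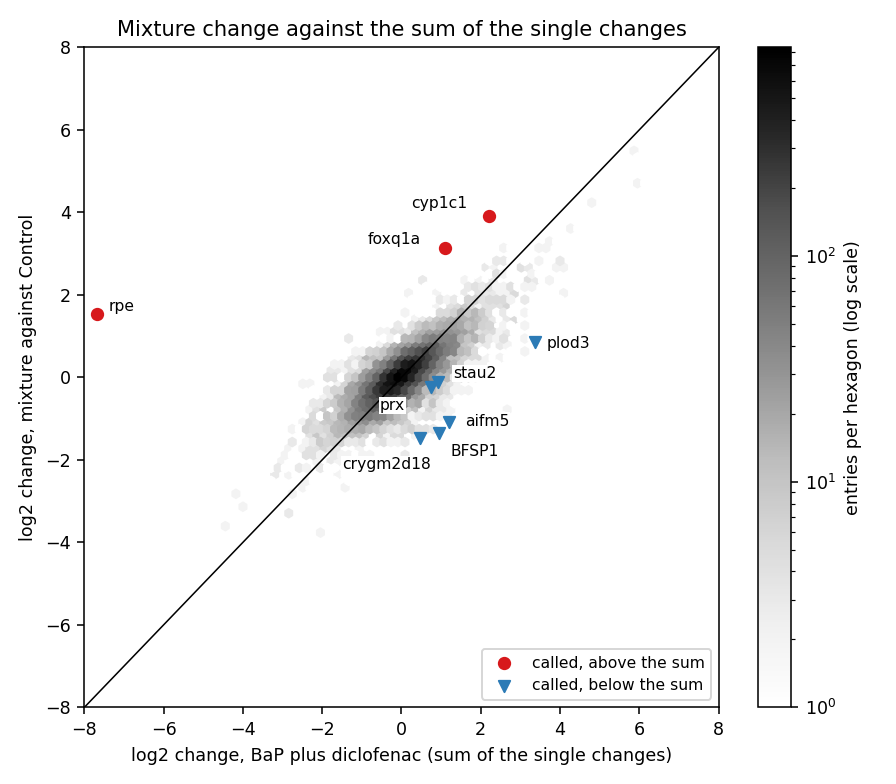
Log2 change with the mixture (vertical axis) against the sum of the log2 changes with BaP and with diclofenac (horizontal axis), for 21622 entries; darker hexagons hold more entries on a log scale and the line marks equality. Red circles are entries above the sum and blue triangles entries below it that passed the test; med6, with a sum of 17.14, lies outside the axes.

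Of the 21622 entries, 10 passed an approximate Wald test of the departure at a Benjamini-Hochberg adjusted p under 0.05 (0.0462% of those tested), 3 above the sum (0.0139%) and 7 below it (0.0324%). At an unadjusted p under 0.05 there were 979 (4.53%), 466 above (2.16%) and 513 below (2.37%). This share is no larger than the fraction of 0.05 that such a limit allows with no departure in any entry. Each SE came from the largest of 3 implied variances, so the share with no departure can lie under 0.05. The comparison therefore does not show that departures are absent. The last entry to pass had an adjusted p of 0.0401, and the next 10 shared an adjusted p of 0.0594. Of the 10, 6 are the only entry of their symbol and averaged 6.64 to 142 CPM. These 6 are foxq1a and cyp1c1 above the sum, and BFSP1, aifm5, prx and crygm2d18 below it.

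Both called genes above the sum with a single entry are in a list of Ah receptor targets, which was chosen with earlier results of these data known. In both genes the mixture stood above BaP alone while diclofenac alone stood below Control. The forkhead transcription factor gene foxq1a (ENSDARG00000030896) had an implied level of 51.1 CPM with the mixture and 27.8 CPM with BaP, against 2.64 CPM with diclofenac and 5.83 CPM in Control. The authors' deposited table gives foxq1a log2 changes of 3.13 with the mixture, 2.25 with BaP and -1.14 with diclofenac. Its departure was 2.02 ± 0.37 (SE), with a 95% interval of 1.30 to 2.74 (adjusted p = 2.86e-04, Wald test). The negative diclofenac change is subtracted and so adds to this departure. When the linear changes were added in place of the log2 changes, the departure of foxq1a was 1.05 and did not pass (adjusted p = 0.0874, Wald test).

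The monooxygenase gene cyp1c1 (ENSDARG00000101195), a family 1 cytochrome P450, had implied levels of 206 CPM with the mixture and 105 CPM with BaP, against 8.34 CPM with diclofenac and 13.7 CPM in Control. Its log2 changes in the authors' deposited table are 3.91 with the mixture, 2.93 with BaP and -0.72 with diclofenac. The departure of cyp1c1 was 1.70 ± 0.34, with a 95% interval of 1.03 to 2.36 (adjusted p = 0.00245, Wald test). With linear changes added, cyp1c1 still passed at 1.06 (adjusted p = 0.0258, Wald test). Both foxq1a and cyp1c1 were thus high with the mixture and with BaP and low in the other 2 groups.

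Below the sum, the gene with the smallest p among those with a single entry encodes a protein of the eye lens. BFSP1 (ENSDARG00000074919), filensin, is a subunit of the beaded filaments of lens fibre cells. Its implied level was 15.3 CPM with the mixture, 49.0 CPM with BaP, 59.1 CPM with diclofenac and 38.8 CPM in Control. The authors' deposited table gives log2 changes of -1.35 with the mixture, 0.33 with BaP and 0.61 with diclofenac, so the mixture was the only treatment below Control. The departure of BFSP1 was -2.29 ± 0.40, with a 95% interval of -3.06 to -1.51 (adjusted p = 7.78e-05, Wald test). The lens gamma crystallin gene crygm2d18 (ENSDARG00000073750) had 9.57 CPM with the mixture, 54.7 CPM with BaP, 18.1 CPM with diclofenac and 26.6 CPM in Control. Its departure was -1.95 ± 0.46 (adjusted p = 0.0401, Wald test), and with no abundance limit on the entries tested it no longer passed (adjusted p = 0.0557, Wald test).

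In the other 2 single-entry genes below the sum, as in BFSP1, the mixture was the lowest group and Control the next. The gene aifm5 (ENSDARG00000075551), a relative of the apoptosis-inducing factor oxidoreductases, had 2.78 CPM with the mixture, 9.75 CPM with BaP, 8.15 CPM with diclofenac and 5.86 CPM in Control. Its departure was -2.28 ± 0.45 (adjusted p = 0.00245, Wald test). The gene prx (ENSDARG00000017246) encodes periaxin, a scaffold protein of myelinating Schwann cells that in mice is also found in lens fibre cells. It had 109 CPM with the mixture, 157 CPM with BaP, 175 CPM with diclofenac and 128 CPM in Control. The departure of prx was -0.97 ± 0.21 (adjusted p = 0.00886, Wald test), the smallest in size of the 10. No BaP change was called in aifm5 or prx, nor was the mixture change of prx, -0.23 ± 0.15 (adjusted p = 0.311, likelihood ratio test).

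The other 4 called entries share their symbol with a more abundant entry, and in each the departure was smaller in size once the entries were summed. The summed values have no SE and mostly reflect the more abundant entry. They cannot show whether the called entry itself departs. An entry of the nonsense-mediated decay class of med6, a subunit of the Mediator complex, had 0.0422 CPM with the mixture, 2.66 CPM with BaP, 5.33 CPM with diclofenac and 0.00991 CPM in Control, and a departure of -15.05 ± 2.36 (adjusted p = 3.95e-06, Wald test). Summed with the protein-coding entry of med6, which averaged 23.6 CPM, the departure was 0.078. A second gene identifier of rpe (ENSDARG00000117024), an enzyme of the pentose phosphate pathway, had 5.49 CPM with the mixture and 0.00903 CPM with BaP, against 1.98 CPM with diclofenac and 1.91 CPM in Control. Its departure was 9.19 ± 1.96 (adjusted p = 0.00886, Wald test), and that of all rpe entries summed was 0.46. With linear changes added the rpe entry did not pass either (6.08 ± 33.2, adjusted p = 0.9995, Wald test). A fitted fold change against a group near 0 CPM depends on the prior count of the fit and is no bound.

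A copy of stau2 (ENSDARG00000112268), an RNA-binding protein that carries mRNA in neurons, had 31.6 CPM with the mixture, 41.3 CPM with BaP, 53.4 CPM with diclofenac and 34.1 CPM in Control. Its departure was -1.03 ± 0.23 (adjusted p = 0.0182, Wald test), whereas the main stau2 entry, at 219 CPM, had 0.05 and the sum of all stau2 entries -0.12. A copy of plod3 (ENSDARG00000111345), a collagen lysyl hydroxylase, had 2.90 CPM with the mixture, 4.53 CPM with BaP, 5.97 CPM with diclofenac and 1.61 CPM in Control. That copy departed by -2.53 ± 0.58 (adjusted p = 0.0291, Wald test), and all plod3 entries summed by 0.23. In these 4 cases the split of reads between copies or transcript classes is uncertain. Entries that share a symbol made up 21.3% of all those tested.

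**Figure D2:**
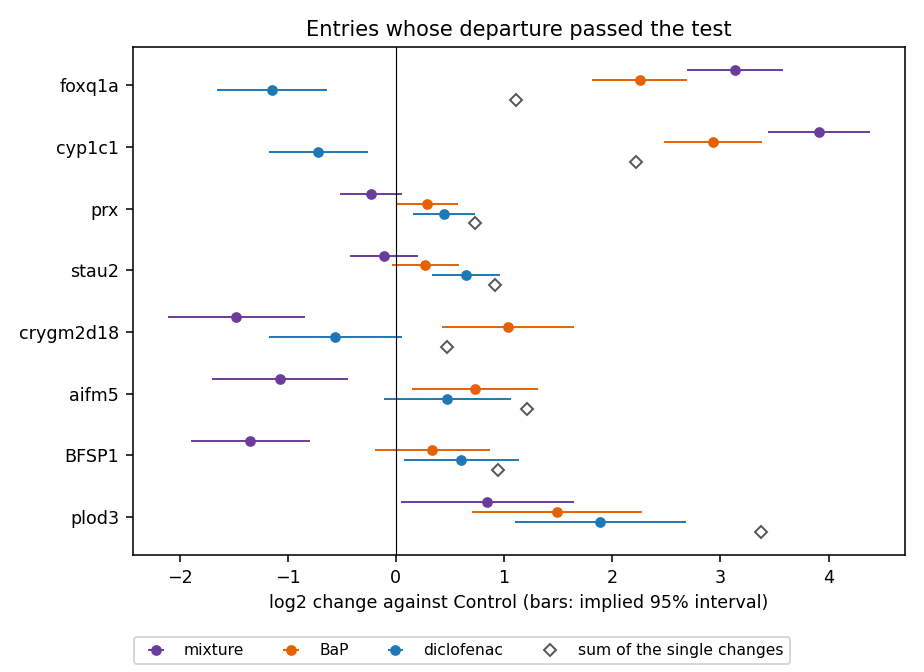
Log2 change against Control with the mixture, BaP and diclofenac (circles, bars the implied 95% interval) and the sum of the single changes (diamonds), for the 8 called entries with a departure under 5 in size. The mixture lies right of the diamond for foxq1a and cyp1c1 and left of it for the other 6.

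A departure does not say whether the mixture went beyond both compounds or lay between them, so the mixture was also set against each compound alone with the same kind of Wald test. It differed from BaP in 3556 entries (16.4%) and from diclofenac in 79 (0.365%), 48 higher (0.222%) and 31 lower (0.143%). The mixture was above both in 7 entries (0.0324%) and below both in 21 (0.0971%), and it lay between them in 12 (0.0555%). Of the 28 entries beyond both compounds, 6 also had a called departure.

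Of the 7 entries above both, 5 belong to a list of Ah receptor targets, namely cyp1c1, foxq1a, gstp2, tiparp and cyp1b1. That is 5 of the 21 tested members of the list, beside 0.0324% of all entries. The mixture was higher than diclofenac in 11 of the 21, beside 0.222%, and higher than BaP in 8, beside 8.33%. BaP binds the Ah receptor, so a mixture above diclofenac is largely built into such a list. The count of 5 thus bears on the mixture only through its excess over BaP. All gene lists were chosen with earlier results of these data known. For cyp1c1 the mixture exceeded BaP by 0.98 ± 0.24 (adjusted p = 8.07e-04, Wald test), and for foxq1a by 0.88 ± 0.26 (adjusted p = 0.00789, Wald test). The gene gstp2, a pi class glutathione S-transferase that conjugates reactive metabolites, had 11.8 CPM with the mixture, 2.73 CPM with BaP, 1.58 CPM with diclofenac and 1.65 CPM in Control. The mixture exceeded BaP in gstp2 by 2.11 ± 0.58 (adjusted p = 0.00362, Wald test), while its departure of 2.18 ± 0.82 did not pass (adjusted p = 0.769, Wald test). The log2 change of gstp2 with BaP alone, 0.72 ± 0.56, was not called. This gene also stands in the lists of Nrf2 and glutathione genes and of conjugation enzymes. The gene tiparp, a mono-ADP-ribosyltransferase that in mammals represses the Ah receptor, had 77.8 CPM with the mixture, 55.7 CPM with BaP, 36.7 CPM with diclofenac and 37.6 CPM in Control. The mixture exceeded BaP in tiparp by 0.48 ± 0.17 (adjusted p = 0.0265, Wald test). With BaP alone the log2 change of tiparp was 0.57 ± 0.16 and was not called (adjusted p = 0.181, likelihood ratio test).

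The other 2 entries above both are hspbp1 and si:ch211-129c21.1. The gene hspbp1, a nucleotide exchange factor of Hsp70 chaperones, had 88.7 CPM with the mixture, 10.2 CPM with BaP, 53.5 CPM with diclofenac and 9.53 CPM in Control. In hspbp1 the mixture exceeded diclofenac by 0.73 ± 0.18 (adjusted p = 0.0226, Wald test), and its departure of 0.63 ± 0.26 did not pass (adjusted p = 0.869, Wald test). In si:ch211-129c21.1 the mixture had 29.0 CPM, against 15.0 CPM with BaP, 14.9 CPM with diclofenac and 12.8 CPM in Control.

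Of the 21 entries below both, 6 belong to the lens lists, which have 64 tested members, beside 0.0971% of all entries. The heat shock factor gene hsf4, which in mammals drives lens fibre maturation, had 3.55 CPM with the mixture, 15.4 CPM with BaP, 11.3 CPM with diclofenac and 12.9 CPM in Control. In hsf4 the mixture minus BaP was -2.12 ± 0.35 (adjusted p = 9.78e-08, Wald test) and the mixture minus diclofenac -1.67 ± 0.35 (adjusted p = 0.00146, Wald test). Its departure of -1.93 ± 0.50 did not pass (adjusted p = 0.0928, Wald test). The gene lgsn, lengsin, a lens relative of glutamine synthetase, had 9.87 CPM with the mixture, 35.8 CPM with BaP, 33.3 CPM with diclofenac and 31.1 CPM in Control. The second beaded filament gene bfsp2 had 34.1 CPM with the mixture, 78.4 CPM with BaP, 101 CPM with diclofenac and 65.3 CPM in Control. In hsf4, lgsn and bfsp2 the mixture was the lowest group. No change with BaP or diclofenac alone was called in these genes, the largest being 0.64 ± 0.34 for bfsp2 with diclofenac (adjusted p = 0.201, likelihood ratio test).

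Also below both were BFSP1, aifm5, prx and the gamma crystallin genes crygm2d1 and crygm2d4. The gene sparcl1, a secreted matrix-associated protein, had 12.4 CPM with the mixture, 23.2 CPM with BaP, 25.004 CPM with diclofenac and 25.3 CPM in Control. The threonine dehydrogenase gene tdh2 had 14.1 CPM with the mixture, 33.5 CPM with BaP, 40.0 CPM with diclofenac and 29.2 CPM in Control. Outside the lens lists, lim2.5 (a lens intrinsic membrane protein), capn3a (a calpain protease), dnase1l1l (a DNase), clic5b (a chloride intracellular channel), nrl (in mice the transcription factor of rods), pcdh1g26 (a protocadherin) and both entries of lctla were below both compounds. For capn3a, the most abundant of these, the levels were 97.9 CPM with the mixture, 233 CPM with BaP, 259 CPM with diclofenac and 179 CPM in Control. The remaining 3, srsf3a, taf8 and the med6 entry, had summed departures of 0.09, 0.18 and 0.078 over all entries of their symbols.

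Of the 12 entries between both compounds, 10 were below BaP and above diclofenac. In the skeletal alpha actin gene acta1b the levels were 2859 CPM with the mixture, 6151 CPM with BaP, 1339 CPM with diclofenac and 5328 CPM in Control. The muscle calcium pump gene atp2a1l had 93.0 CPM with the mixture, 408 CPM with BaP, 49.8 CPM with diclofenac and 309 CPM in Control. In these genes the mixture was low beside Control, though less so than with diclofenac alone. Departures were 0.89 ± 0.30 for acta1b and 0.50 ± 0.29 for atp2a1l, and the smallest adjusted p of a departure among the 12 was 0.187 (Wald test).

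Gene lists for the tissues and pathways concerned, 41 in all, were then described by their departures, with 1 entry per symbol. Over all 19091 symbols the median departure was 0.02 with quartiles of -0.20 and 0.23. Of all entries, 52.3% had a departure above 0. The genes of every list share the same 12 libraries, so its members above or below 0 are not independent observations. Only 3 lists held a gene with a called departure: the Ah receptor targets, the lens crystallins and the other lens genes. Apart from genes named by rule, single genes from the other lists were picked after their values were seen, in part for their unadjusted p.

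The departures of the Ah receptor targets lay on both sides of 0, but none was called below the sum. The list's 21 tested members, of 23 listed, had a median departure of 0.08 with quartiles of -0.39 and 0.74, and 13 of 21 lay above 0. The departure was called above the sum in 2 of 21 (cyp1c1 and foxq1a) and below it in 0, beside 0.0139% and 0.0324% of all entries. At an unadjusted p under 0.05, 4 of 21 were above and 1 below, beside 2.16% and 2.37% of all entries. When linear changes were added instead, 7 were above and 0 below at that limit. The share of all entries at that limit was not taken with linear changes, so these counts have no background. The median log2 change was 2.43 with the mixture, 0.72 with BaP and -0.01 with diclofenac. The mixture was higher than BaP in 8 of 21, against 8.33% of all entries, and lower in 0.

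Among the family 1 P450 genes, cyp1a had 1372 CPM with the mixture, 986 CPM with BaP, 6.81 CPM with diclofenac and 8.83 CPM in Control. Its departure of 0.85 ± 0.45 did not pass (95% interval -0.04 to 1.74, adjusted p = 0.999, Wald test). For cyp1b1 the entry with the higher average, a nonsense-mediated decay transcript class, was taken, and the levels were 70.3 CPM with the mixture, 44.6 CPM with BaP, 8.15 CPM with diclofenac and 3.65 CPM in Control. The departure of cyp1b1 was -0.50 ± 0.31, with an interval of -1.11 to 0.10, so its sign was opposite to that of cyp1c1, and the mixture was nevertheless above both compounds. The gene cyp1c2 departed by 0.55 ± 0.42. The receptor's repressor gene ahrra departed by 0.71 ± 0.68, with levels of 7.40 CPM with the mixture, 5.37 CPM with BaP, 0.610 CPM with diclofenac and 0.722 CPM in Control. The antioxidant regulator gene nfe2l2b had 24.8 CPM with the mixture, 11.4 CPM with BaP, 12.4 CPM with diclofenac and 3.02 CPM in Control, and a departure of -0.92 ± 0.42 (adjusted p = 0.999, Wald test). With linear changes added, nfe2l2b departed by 0.26 and cyp1b1 by 0.52, so the sign of both depends on that scale. The receptor gene ahr2 itself departed by 0.10 ± 0.22.

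**Figure D3:**
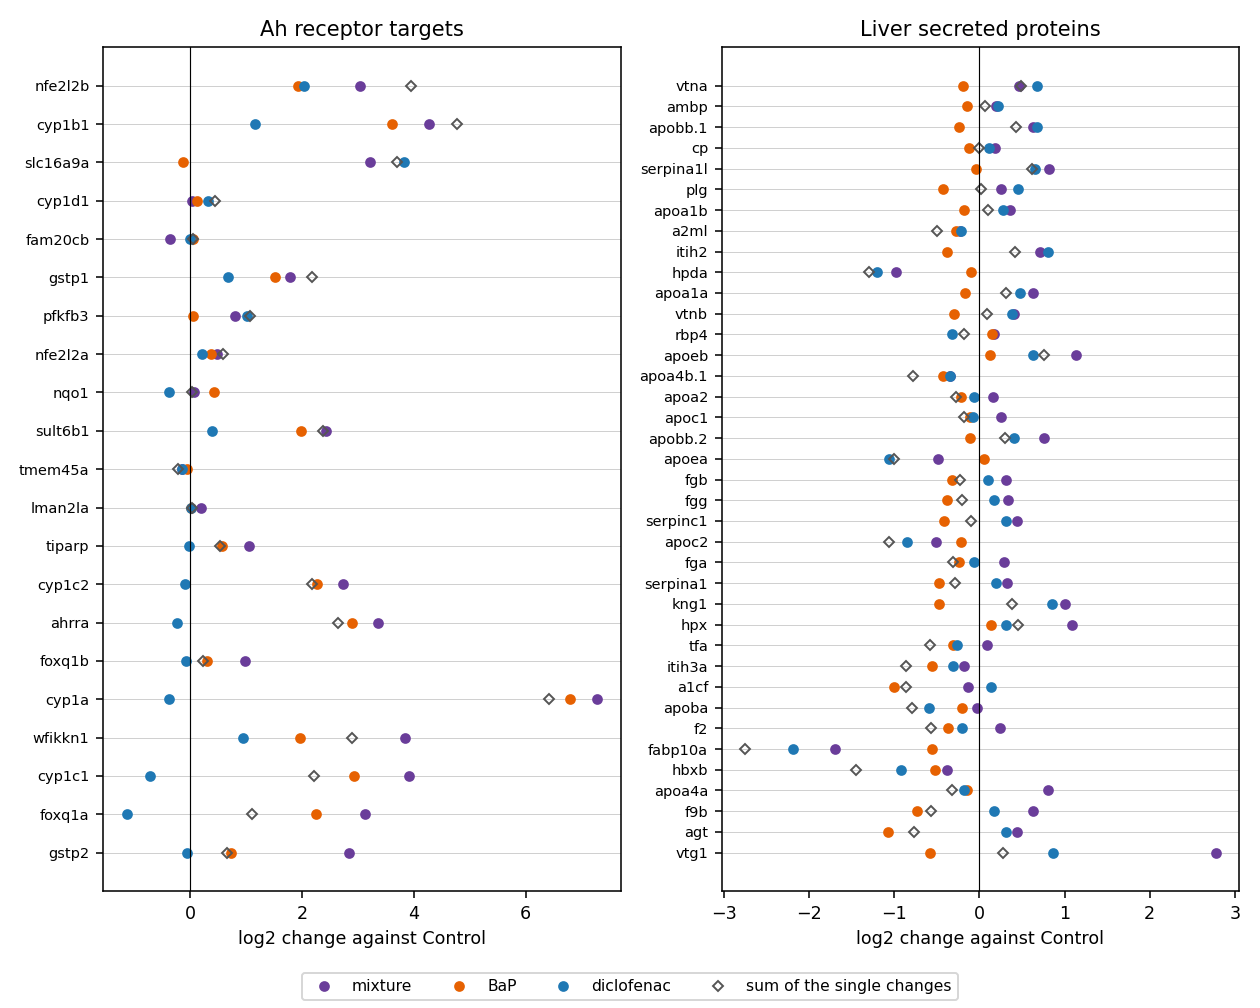
Log2 change against Control with the mixture, BaP and diclofenac (circles) and the sum of the single changes (diamonds), for 21 Ah receptor targets (left) and 38 liver secreted protein genes (right), ordered by departure. Mixture circles lie right of the diamond in 13 of 21 Ah receptor targets and in 37 of 38 liver genes.

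The 2 lens lists had the lowest median departures of the 41 lists. Crystallins are the proteins that fill lens fibre cells, and 39 of 56 listed were tested, from 1.11 to 1068 CPM on average. Their median departure was -1.44 with quartiles of -1.61 and -1.33, and 38 of 39 lay below 0. The departure was called in 1 of 39, crygm2d18, beside 0.0324% of all entries called below the sum. With 1 entry per symbol tested, crygm2d18 did not pass (adjusted p = 0.059, Wald test), which leaves 0 of 39. At an unadjusted p under 0.05, 34 of 39 (87.2%) were below the sum and 0 above it, beside 2.37% and 2.16% of all entries. The median log2 change was -1.25 with the mixture, 0.30 with BaP and -0.23 with diclofenac, and in 37 of 39 the mixture had the lowest level of the 4 groups.

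The 26 gamma crystallins had a median departure of -1.43, the 11 beta crystallins one of -1.46 and the 2 alpha crystallins one of -0.57. The alpha crystallin gene cryaa, also a small heat shock protein, had 17.8 CPM with the mixture, 50.8 CPM with BaP, 40.1 CPM with diclofenac and 42.3 CPM in Control, with a departure of -1.44 ± 0.50 (adjusted p = 0.617, Wald test). The other alpha crystallin gene, cryaba, at 1.11 CPM, was the only one of the 39 above 0, with a departure of 0.30 ± 0.69. The abundant beta crystallin gene crybb1l1 had 550 CPM with the mixture, 1299 CPM with BaP, 1323 CPM with diclofenac and 1101 CPM in Control. Its departure was -1.51 ± 0.50, close to the list's median.

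Against each compound alone, the crystallins differed in how many passed. The mixture was lower than BaP in 35 of 39 and higher in 0, beside 8.12% and 8.33% of all entries. It was lower than diclofenac in 2 of 39, crygm2d1 and crygm2d4, beside 0.143% of all entries. At an unadjusted p under 0.05 it was lower in 33 of 39 and higher in 0. The share of all entries at that limit was not taken for this comparison, so the 33 have no background. The median difference from diclofenac was -1.12, with a median SE of 0.39 for single genes. The crystallins share 12 libraries, and the gamma class holds near-identical copies whose reads may be split unevenly, so 38 departures below 0 are not independent observations. In RNA of whole fish, fewer lens cells and less RNA per lens cell cannot be told apart.

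The 25 other tested lens genes, of 28 listed, are given by role. Their median departure was -0.56, with 1 called (BFSP1), beside 0.0324% of all entries called below the sum. At an unadjusted p under 0.05, 10 of 25 were below the sum and 0 above it, beside 2.37% and 2.16% of all entries. The grouping of these genes by role was made after their values were seen, and differences between roles were not tested. The aquaporin genes mipb and mipa departed by -1.54 ± 0.53 and -1.24 ± 0.56. The gap junction genes gja3, gja8a and gja8b departed by -1.28 ± 0.72, -0.44 ± 0.63 and -0.36 ± 0.74. The lens membrane protein genes lim2.3, lim2.4 and lim2.1 departed by -1.40 ± 0.53, -1.37 ± 0.51 and -0.56 ± 0.81. The 12 transcription factor genes ran from -1.93 for hsf4 to 0.37 for six3b, and pax6a, a regulator of eye formation, departed by 0.28 ± 0.22. The lens forkhead gene foxe3 departed by -1.90 ± 0.63, with 1.66 CPM with the mixture, 2.43 CPM with BaP, 3.83 CPM with diclofenac and 1.496 CPM in Control, so the single compounds stood above Control and the mixture close to it. None of these genes other than BFSP1 had a called departure (Wald test).

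**Figure D4:**
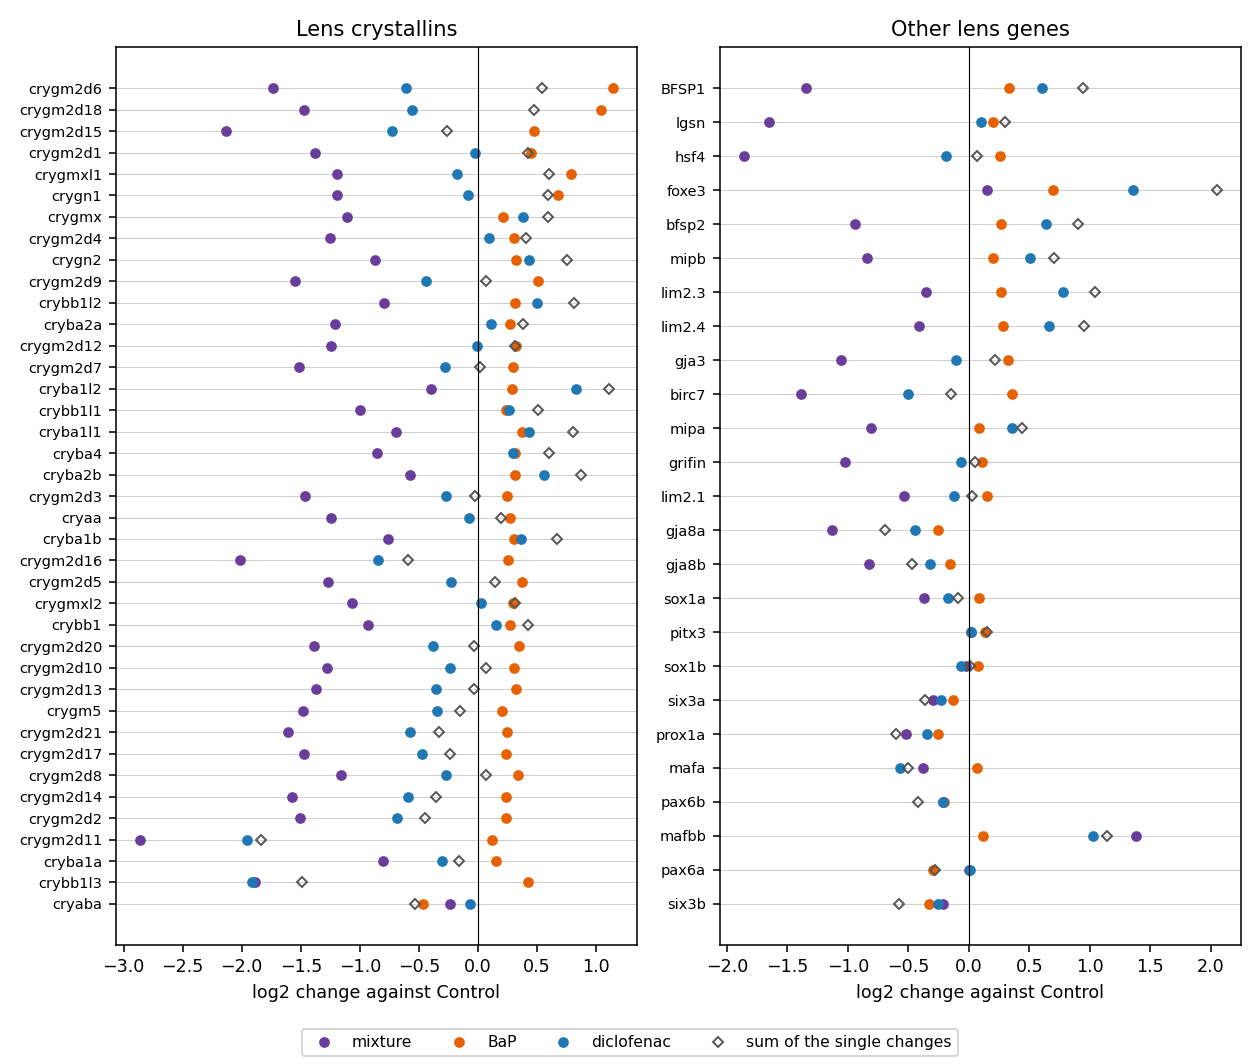
Log2 change against Control with the mixture, BaP and diclofenac (circles) and the sum of the single changes (diamonds), for 39 crystallins (left) and 25 other lens genes (right), ordered by departure. The mixture lies left of the diamond in 38 of 39 crystallins and in 18 of 25 other lens genes.

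Photoreceptors, the light-sensing cells of the retina, were read beside the lens. The 30 tested photoreceptor genes had a median departure of 0.08. Of the 30, 1 was above and 1 below the sum at an unadjusted p under 0.05, beside 2.16% and 2.37% of all entries. Their median log2 change was -0.65 with the mixture, -0.16 with BaP and -0.48 with diclofenac. The difference between the lens and photoreceptor lists was not tested.

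Liver genes had the highest median departure of the 41 lists. Of 38 tested genes, of 47 listed, for proteins that the liver secretes into plasma, 37 had a departure above 0 (52.3% of all entries), the median was 0.53 with quartiles of 0.31 and 0.68, and 0 were called. At an unadjusted p under 0.05, 8 of 38 were above the sum and 0 below it, beside 2.16% and 2.37% of all entries. The median log2 change was 0.30 with the mixture, -0.26 with BaP and 0.15 with diclofenac. BaP alone lay below Control in 34 of 38, but 0 of 38 were called lower with BaP, beside 0.0324% of all entries. Over all symbols the median log2 change with BaP was 0.01. The mixture was higher than BaP in 18 of 38, beside 8.33% of all entries. It differed from diclofenac in 0 of 38, beside 0.365% (Wald test). At an unadjusted p under 0.05 it was higher than diclofenac in 5 of 38 and lower in 0. The share of all entries at that limit was not taken for this comparison, so the 5 have no background.

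The angiotensinogen gene agt had 10.6 CPM with the mixture, 3.69 CPM with BaP, 9.67 CPM with diclofenac and 7.79 CPM in Control, and a departure of 1.20 ± 0.40 (adjusted p = 0.536, Wald test). The transferrin gene tfa had 1178 CPM with the mixture, 891 CPM with BaP, 919 CPM with diclofenac and 1105 CPM in Control, and a departure of 0.67 ± 0.27. In agt the low group was BaP, though its change of -1.08 ± 0.28 was not called (adjusted p = 0.0674, likelihood ratio test). In tfa both single compounds were under the mixture and Control. Complement genes, most of which the liver also makes, had a median departure of 0.31 over 22 tested members, with 7 above the sum at an unadjusted p under 0.05 and 0 below it, beside 2.16% and 2.37% of all entries. The pore-forming complement gene c9 departed by 0.61 ± 0.24, with 226 CPM with the mixture, 120 CPM with BaP, 210 CPM with diclofenac and 169 CPM in Control. The prothrombin gene f2 stands in both lists.

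Stress genes that were high with diclofenac had no called departure. For the 23 AP-1 and immediate early genes the median departure was 0.22, with 0 called, and 6 above the sum at an unadjusted p under 0.05 and 0 below it, beside 2.16% and 2.37% of all entries. Their median log2 change was 1.91 with the mixture, -0.04 with BaP and 1.95 with diclofenac. The AP-1 subunit gene fosl1a departed by -0.37 ± 0.35, with 105 CPM with the mixture, 2.99 CPM with BaP, 110 CPM with diclofenac and 2.43 CPM in Control. The stress factor gene atf3 departed by -0.10 ± 0.36, and by 0.33 with linear changes added. The gene jun, a subunit of AP-1, departed by 0.98 ± 0.47, with 232 CPM with the mixture, 58.5 CPM with BaP, 124 CPM with diclofenac and 61.7 CPM in Control. For fosl1a the mixture and diclofenac were close together, and for jun the mixture was the highest group.

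Heat shock genes and co-chaperones had a median departure of 0.11 over 33 members. Of the 33, 2 were above the sum and 0 below it at an unadjusted p under 0.05, beside 2.16% and 2.37% of all entries. The small heat shock protein gene hspb11 departed by -0.50 ± 0.36, with 139 CPM with the mixture, 4.66 CPM with BaP, 138 CPM with diclofenac and 3.26 CPM in Control. The Hsp40 gene dnajb1b departed by 1.63 ± 0.79, with 398 CPM with the mixture, 19.0 CPM with BaP, 132 CPM with diclofenac and 19.6 CPM in Control. The SE of dnajb1b is large, so a departure of this size did not pass (adjusted p = 0.999, Wald test). Genes of the unfolded protein and integrated stress responses had a median of 0.14 over 32 members. Of these, 5 were above and 2 below the sum at an unadjusted p under 0.05, beside 2.16% and 2.37% of all entries. In this list the endoplasmic reticulum chaperone gene hspa5 departed by 1.06 ± 0.49, while the integrated stress response genes atf5b and sesn2 departed by -1.04 ± 0.41 and -0.85 ± 0.41.

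The cyclooxygenase genes, whose products diclofenac blocks, had departures with intervals that span 0. The constitutive form ptgs1 departed by 0.35 ± 0.27 (95% interval -0.18 to 0.88). The inducible forms ptgs2a and ptgs2b departed by -0.14 ± 0.40 and -0.34 ± 0.58, and with linear changes added ptgs2b departed by 0.18. Over 19 genes of prostaglandin synthesis and breakdown the median was 0.26. Of the 19, 2 were above and 1 below the sum at an unadjusted p under 0.05, beside 2.16% and 2.37% of all entries. The prostaglandin E synthase gene ptges had 9.13 CPM with the mixture, 2.84 CPM with BaP, 5.83 CPM with diclofenac and 3.67 CPM in Control, and a departure of 1.02 ± 0.37 (adjusted p = 0.711, Wald test).

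The departures of 3 further genes named by rule were not called either. The cell cycle inhibitor gene cdkn1a departed by 0.06 ± 0.45, and insig1, which restrains sterol synthesis, by 0.20 ± 0.37. The prolactin gene prl departed by 0.44 ± 0.42, with 9.03 CPM with the mixture, 1.22 CPM with BaP, 17.2 CPM with diclofenac and 3.14 CPM in Control. With linear changes added, prl departed by -0.76, so its sign depends on that scale. In prl the mixture level lay between a low BaP level and a high diclofenac level, but prl was not among the 12 entries that the tests placed between both compounds.

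Among the 10 lists with the largest median changes under diclofenac, the median departure ran from -0.29 for neutrophil and macrophage markers to 0.22 for the AP-1 and immediate early genes. The 18 neutrophil and macrophage genes had a median log2 change of 0.50 with the mixture, 0.06 with BaP and 0.58 with diclofenac. Of the 18, 14 departed below 0, beside 10312 of all 21622 entries. At an unadjusted p under 0.05, 0 were above and 1 below the sum, beside 2.16% and 2.37% of all entries. The 32 hypoxia response genes had a median departure of -0.20. Of these, 0 were above and 2 below the sum at an unadjusted p under 0.05, beside 2.16% and 2.37% of all entries. The 51 fast muscle genes had a median departure of 0.07 beside median log2 changes of -0.70 with the mixture, 0.22 with BaP and -0.86 with diclofenac. Of the 51, 2 were above and 3 below the sum at an unadjusted p under 0.05, beside 2.16% and 2.37% of all entries. For the 13 mitochondrially encoded genes the median departure was -0.15 and for 25 cholesterol synthesis genes -0.05. Outside the 10 lists, the median was -0.03 for 64 ribosomal proteins. In the cholesterol, ribosomal and mitochondrial lists 0 members were above and 0 below the sum at an unadjusted p under 0.05, beside 2.16% and 2.37% of all entries. Neuronal genes had a median of -0.20 over 57 members with 46 below 0, beside 10312 of all 21622 entries. Of the 57, 2 were below the sum at an unadjusted p under 0.05, beside 2.37% of all entries. Genes of DNA replication and mitosis, also outside the 10 lists, had a median of 0.26 over 47 members with 44 above 0, beside 52.3% of all entries. At an unadjusted p under 0.05, 0 were above and 0 below the sum, beside 2.16% and 2.37% of all entries. These counts above or below 0 are of genes that share the same libraries, not of independent observations.

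**Figure D5:**
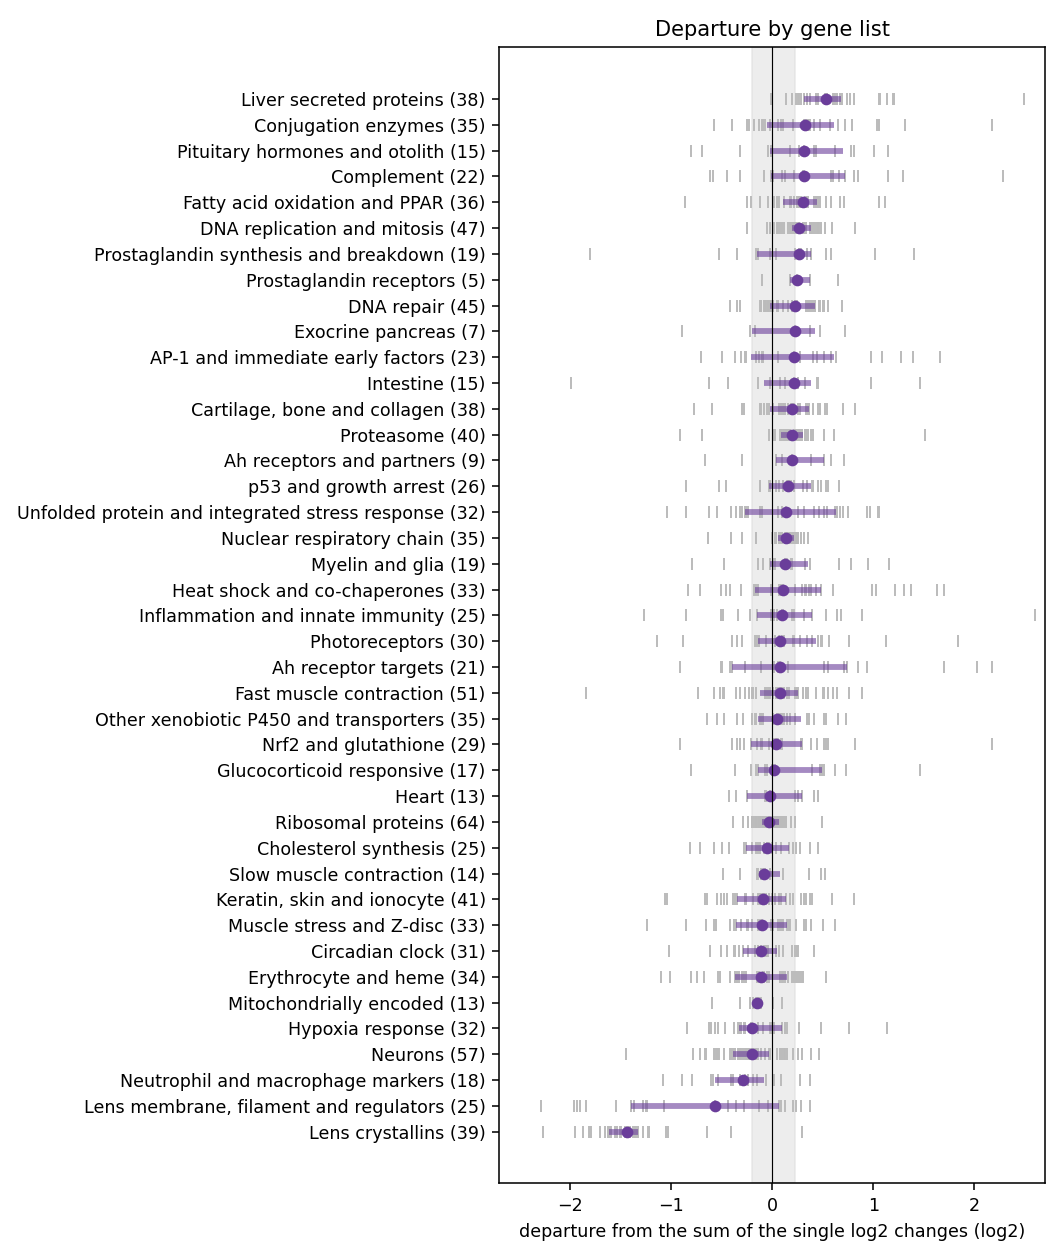
Departure of the mixture from the sum of the single log2 changes, by gene list (number of tested genes in brackets): grey ticks are genes (drawn at 2.6 where larger in size), dots medians and bars quartiles, and the grey band the quartiles of all 19091 symbols. The crystallins have the lowest median, -1.44, and the liver secreted proteins the highest, 0.53.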

How the data were processed

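Per the labels' protocols, each of the 12 libraries (4 groups, RNA of whole zebrafish) was read to a depth of 40000000 to 80000000 reads, 150 bp and paired-end. Tools named in the submitters' processing notes are edgeR, limma and kallisto, with the build GRCz11, and their roles are not stated there. The deposited table gives log2 fold changes of each treatment against Control and an average log2 CPM over all libraries, a likelihood ratio, which is a score with no fixed range, and a p-value, per the file headers. The log base was taken as 2, since with that base the deposited average log2 CPM values add up to a linear total of 1.01e+06. A chi-square test of each likelihood ratio (1 degree of freedom) returned the deposited p-value within a relative difference of 9.86e-13, so the p-values are unadjusted.

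The departure was the mixture's log2 change minus those of BaP and diclofenac. The variance of a contrast was its squared log2 change over its likelihood ratio. The largest of an entry's 3 values was used (median ratio of largest to smallest 1.03), times 2 for the departure and times 1 for the mixture against a single compound. Two-sided Wald tests (chi-square, 1 degree of freedom) were Benjamini-Hochberg adjusted over the 21622 entries of at least 1 CPM, at a threshold of 0.05. Equal spread in all groups was assumed and not tested, and the p-values take over the spread that the authors fitted from groups of 3 libraries. The departure contains all 3 contrasts, so it is not independent of them. Group levels solve the average and the 3 fold changes for equal group sizes, and compare groups within a gene, not genes.

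Of 1385 symbols in 41 gene lists, 1337 were matched (21 by older names, for which a RefSeq table of assembly GRCz12tu was read) and 1160 tested, each by its most abundant entry. Lists were described by counts and medians. Members, lists and tests were chosen with earlier results of these data known. Named genes were the called entries, 17 genes named regardless of the test, and per direction the 5 entries beyond both compounds with the smallest larger p. The others were chosen after their values were seen, and so was the use of unadjusted p-values. Promoter sequences were not used here. Software was Python 3.11.15 with numpy 2.4.6, scipy 1.17.1, pandas 2.3.3, statsmodels 0.14.6 and matplotlib 3.10.9.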

Additional observations from a re-analysis of the deposited data

Results flagged for a closer look

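The departure is the effect of BaP with diclofenac minus its effect alone only if doses were the same alone and in the mixture, which is unknown. This difference passed a Wald test, Benjamini-Hochberg adjusted, in 10 entries. In foxq1a the difference was 2.02 and in cyp1c1 1.70, both with more RNA under the mixture than under BaP. In BFSP1 it was -2.29, in aifm5 -2.28, in crygm2d18 -1.95 and in prx -0.97. In these 4 genes BaP alone lay above Control and the mixture below it, but no BaP change was called in any of the 4. The mixture change of prx, -0.23 ± 0.15, was not called either (adjusted p = 0.311, likelihood ratio test). The med6 entry had -15.05, the rpe entry 9.19, the plod3 entry -2.53 and the stau2 entry -1.03, each beside a more abundant entry of the same symbol. The split of reads between such entries is uncertain. No check for a single outlying library was made, since the table holds no values per library.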

How the results depend on the processing

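The 10 called departures (3 above and 7 below the sum) became 30 (9 and 21) with the median of the 3 implied variances, 29 (9 and 20) with the variance of the mixture contrast, and 38 (12 and 26) with the smallest, a setting chosen after seeing the data. With linear changes added they became 21 (1 above and 20 below). With Benjamini-Yekutieli adjustment 5 were left, 3 of them below, and with 1 entry per symbol 5, also 3 below. At an unadjusted p under 0.05 there were 979 (4.53%), no more than that limit allows with no departure in any entry. The largest implied variance was used there, so this does not show that departures are absent. Without the abundance limit, at 5 CPM or more, with protein-coding entries alone, with a variance ratio of at most 2, with departures centred on their median, or at 2-fold or more, the count stayed within 1.5 times, as did the counts of entries beyond both compounds under all alternatives run for them. Summing the entries of a gene reversed med6 to 0.078, and summing those of a symbol reversed plod3 to 0.23. These sums have no SE and mostly reflect a more abundant entry. The heat shock factor gene hsf4 passed with the median variance (adjusted p = 0.0294) and with linear changes (adjusted p = 0.0481, Wald test). Over the alternatives run, 5 of 41 list medians changed sign, none over 0.221 in size. The cause of these shifts was not tested. No paired analysis was possible because the deposited table holds no values per library, and for the same reason no replicate could be left out. Large departures of entries under 5 CPM carry the largest errors.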
